A study of Sus scrofa with 6 samples.

Results

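The matrix metalloproteases (MMPs), the ADAM proteases, the ADAMTS proteases and the tissue inhibitors of metalloproteases (TIMPs) were examined in porcine embryonic fibroblasts (PEFs) and in the induced pluripotent stem cells (piPSCs) made from them. Members were all rows of the deposited expression table whose gene name is MMP, TIMP, ADAM or ADAMTS followed by a number and at most 1 letter. The rule used no expression value. It found 57 of the 18007 genes, namely 18 MMP, 4 TIMP, 16 ADAM and 19 ADAMTS genes, on 16 chromosomes.

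The 3 PEF lines PEF5, PEF7 and PEF8 were grown from the tip of the ear of embryos at embryonic day 90, from a cross of a boar labelled Longwhite (Large White in the methods) with a Meishan sow. Lines piPSC5, piPSC7 and piPSC8 were each derived from the like-numbered PEF line with lentiviruses that carry Oct4, Sox2, Klf4 and cMyc under a promoter switched on by doxycycline, and they were kept in doxycycline as colonies on mouse feeder cells in LF2i medium. All 6 libraries share this origin from 1 pair of parents, and each line gave 1 library, so the spread between libraries is the spread between lines. A p-value here measures that spread only. Poly-A RNA was sequenced, and values are FPKM, fragments scaled to the length of the transcript and to the total of the library, so levels of different genes can be compared.

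MMPs are zinc-dependent enzymes that are made as inactive precursors and cut collagens, gelatin, fibronectin, laminins and other parts of the extracellular matrix. TIMPs bind their active sites and block them. ADAMs sit in the cell membrane, where those with a catalytic site release the outer parts of growth factors, cytokines and adhesion proteins, a step called shedding. ADAMTS enzymes are secreted and cut proteoglycans, procollagens and matrix glycoproteins. Fibroblasts are known as a main source of many of these enzymes and inhibitors.

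Totals ran from 15146576 to 17836510 fragments in PEF and from 11010629 to 15050204 in piPSC libraries. The 9 fibroblast markers all fell in piPSCs, and their summed level was between 4417 and 6354 FPKM in PEFs and between 128 and 219 FPKM in piPSCs. The pluripotency markers with a row summed to at most 0.341 FPKM in PEFs and to between 2.87 and 9.03 FPKM in piPSCs. In piPSCs this sum came almost wholly from SOX2 and LIN28B, whose PEF and piPSC values did not overlap. Neither was called in the main limma fit (adjusted p = 0.0626 and 0.0667). Both were called with a pseudocount of 0.1 (limma adjusted p = 0.0376 and 0.0242) and with voom (0.0254 and 0.0351). Neither was with the line as a block or without the filter. The paper describes both as upregulated. Whether SOX2 fragments came from the Sox2 of the lentiviruses was not tested. POU5F1, LIN28A, DPPA5 and TDGF1 had no row. NANOG, SALL4, ESRRB and UTF1 were at or near 0 in all libraries. These 4 markers thus stayed near 0 in piPSCs, unlike SOX2 and LIN28B. The paper likewise reports low Nanog, Sall4 and Esrrb after reprogramming and describes its piPSCs as incompletely reprogrammed. The methods describe male lines, but DDX3Y, a gene of the Y chromosome, had 3439 fragments in PEF8, 4207 in piPSC8 and 0 in the libraries of lines 5 and 7. Fragments from the mouse feeder cells cannot be told apart from those of piPSCs in these values. In such bulk samples, fewer cells that express a gene and less RNA of it per cell cannot be told apart either.

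The row listed as MMP3 (ENSSSCG00000014985) needs care. It runs from 33410143 to 33454194 on the minus strand of chromosome 9 of Sscrofa11.1 and spans 44.1 kb. In the RefSeq annotation of the same build this stretch holds MMP1, the interstitial collagenase, from 33411738 to 33420205, and MMP3, stromelysin-1, from 33446969 to 33453995. The exon length behind the row is 5903 bases, against 1997 for RefSeq MMP1 and 1641 for RefSeq MMP3. Fragments of both genes therefore cannot be told apart, and MMP1 was not analysed here as a gene of its own. The deposited table names the row MMP3 but gives interstitial collagenase as its best protein match. It is called the MMP3 row below, and its values may stand for either gene or both. Its FPKM are scaled to the 5903 bases and would be too low for RNA of the shorter RefSeq models. Sums, shares and ratios that hold this row carry this limit.

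**Figure D1:**
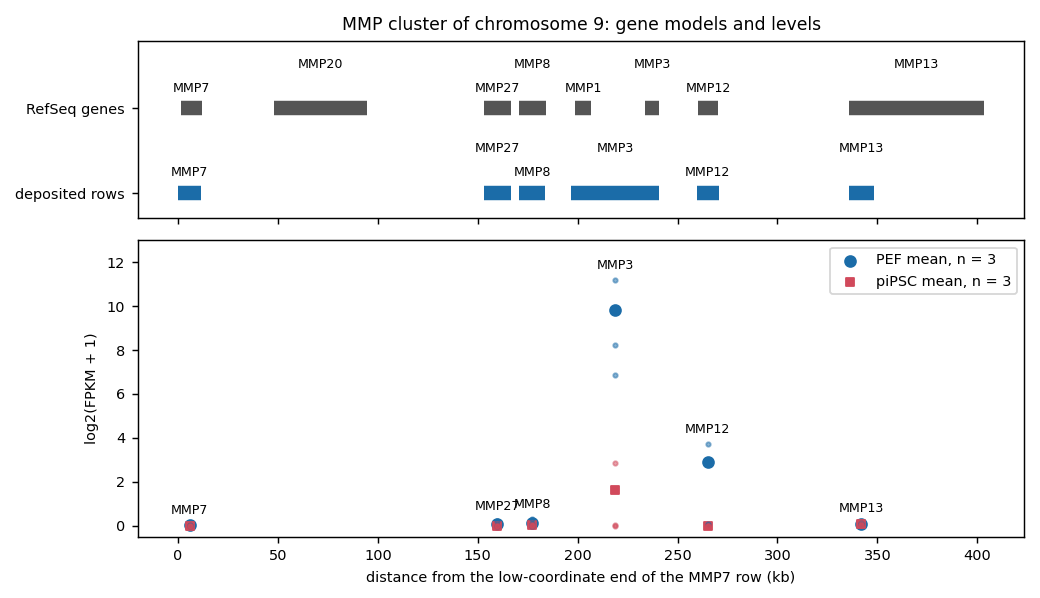
The MMP cluster of chromosome 9, drawn to scale as distance in kb from the low-coordinate end of the MMP7 row. The upper panel shows RefSeq gene models and the rows of the deposited table, and the lower panel shows log2(FPKM + 1) for each row, with large symbols for the means of the 3 PEF and the 3 piPSC libraries and small points for single libraries. The MMP3 row covers RefSeq MMP1 and MMP3 and has a PEF mean of 917 FPKM, while MMP7, MMP27, MMP8 and MMP13 lie near 0 in both groups.

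Promoter sequences were read from the genome just before the RefSeq gene starts of RefSeq MMP3, MMP2 and MMP14, whose rows held the most MMP RNA in PEFs (for MMP3 as part of the shared row), of MMP9 as the second gelatinase, and of ADAMTS19, which had the largest increase. Each stretch is the last 150 bases before the start, written 5′ to 3′ on the strand of the gene. Capitals mark the letters TGANTCA of the AP-1 motif, TATAAA of the TATA box and GGGCGG of the SP1 motif on either strand; no other letters are capitals.
MMP3: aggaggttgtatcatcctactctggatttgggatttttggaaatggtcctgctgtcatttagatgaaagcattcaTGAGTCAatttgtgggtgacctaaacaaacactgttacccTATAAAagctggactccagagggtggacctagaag
MMP9: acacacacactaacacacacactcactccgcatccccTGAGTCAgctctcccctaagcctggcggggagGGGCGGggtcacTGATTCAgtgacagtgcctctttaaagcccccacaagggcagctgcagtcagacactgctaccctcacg
MMP2: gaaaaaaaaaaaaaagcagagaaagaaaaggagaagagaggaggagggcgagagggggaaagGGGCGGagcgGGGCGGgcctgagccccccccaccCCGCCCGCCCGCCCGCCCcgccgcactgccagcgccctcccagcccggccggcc
MMP14: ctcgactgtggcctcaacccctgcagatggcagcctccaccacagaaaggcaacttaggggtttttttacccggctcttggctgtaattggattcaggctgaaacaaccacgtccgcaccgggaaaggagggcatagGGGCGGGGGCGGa
ADAMTS19: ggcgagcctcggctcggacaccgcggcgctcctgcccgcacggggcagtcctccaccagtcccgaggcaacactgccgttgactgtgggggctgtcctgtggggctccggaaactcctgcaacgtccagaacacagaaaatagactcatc
They lie at chr9:33453996-33454145 (minus strand) for MMP3, chr17:48179540-48179689 (plus strand) for MMP9, chr6:30087032-30087181 (minus strand) for MMP2, chr7:76185932-76186081 (minus strand) for MMP14 and chr2:132145116-132145265 (plus strand) for ADAMTS19, all on Sscrofa11.1. The MMP3 stretch holds TGAGTCA at 75 bases and TATAAA at 35 bases before the start. MMP9 has 2 AP-1 matches, at 113 and 69 bases. MMP2 and MMP14 hold GGGCGG in 1 or both directions and neither an AP-1 nor a TATA match. The ADAMTS19 stretch holds none of these motifs. The stretches of MMP3, MMP9, MMP14 and ADAMTS19 lie inside the rows of the deposited table, whose starts are further upstream. For MMP9 that row starts at 48175056. The MMP2 stretch lies just outside its row.

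Over windows from 250 bases before to 50 bases after the RefSeq start, 56 members had a sequence. The AP-1 letters were found in 7 of them (12.5%) and in 6.07% of 19556 genes. These 7 were MMP3, MMP9, MMP12, MMP19, TIMP4, ADAMTS1 and ADAM7. TATAAA was found in 8 members (14.3%, against 10.9% of all genes), GGGCGG in 27 (48.2%, against 50.6%), TGTGGT of the RUNX motif in 6 (10.7%, against 16.1%) and GGAATG of the TEAD motif in 6 (10.7%, against 11.8%), with both strands searched. These are counts of letters, and no test was run on them. With the gene starts of the deposited table, 5 of 57 members held the AP-1 letters (8.77%, against 5.61%). These were ADAM32, ADAMTS1, ADAMTS17, MMP7 and MMP12, so 2 members, ADAMTS1 and MMP12, held them with both sets of starts, and MMP3, MMP9 and MMP19 with the RefSeq starts alone.

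To ask how the families differ between piPSCs and PEFs, limma was run on log2(FPKM + 1) over all 12428 genes with a mean of at least 0.5 FPKM, and a gene was called when it changed 2-fold or more with an adjusted p under 0.05. Of the 57 members, 38 passed this filter. Among these, 23 fell in piPSCs, 5 rose and 10 were not called. Over all tested genes 16.7% were lower and 20.2% were higher. The median log2 fold change of the 38 members was -2.27, against 0.20 over all tested genes. After median ratio scaling, which brings the median of all genes to -0.02, the same number of members was called in each direction, while the shares of all genes became 20.3% lower and 15.1% higher, and with equal sums they were 21% and 14.2%. The filter is passed by 13 members whose mean is under 0.5 FPKM in 1 of the groups, 8 of them in piPSCs. Without the filter, 22 of all 57 members were lower and 5 were higher, against 10.6% and 13.1% of 18007 genes.

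By family, 8 of 11 tested MMP genes fell and 1 rose, with a median log2 fold change of -2.85. All 3 tested TIMP genes fell, with a median of -3.87. Of 10 ADAM genes 5 fell and 1 rose (median -1.11), and of 14 ADAMTS genes 7 fell and 3 rose (median -1.20). The libraries of the groups did not overlap for any of the 28 called genes. The call itself favours this, since it rests on the same libraries, so it adds no support. Among all tested genes, called or not, 26.8% (lower) and 37.3% (higher) did not overlap. Over the whole table, values were lower in all piPSC than in all PEF libraries for 30 of the 57 members (21.8% of all genes) and higher for 8 (28.2% of all genes).

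**Figure D2:**
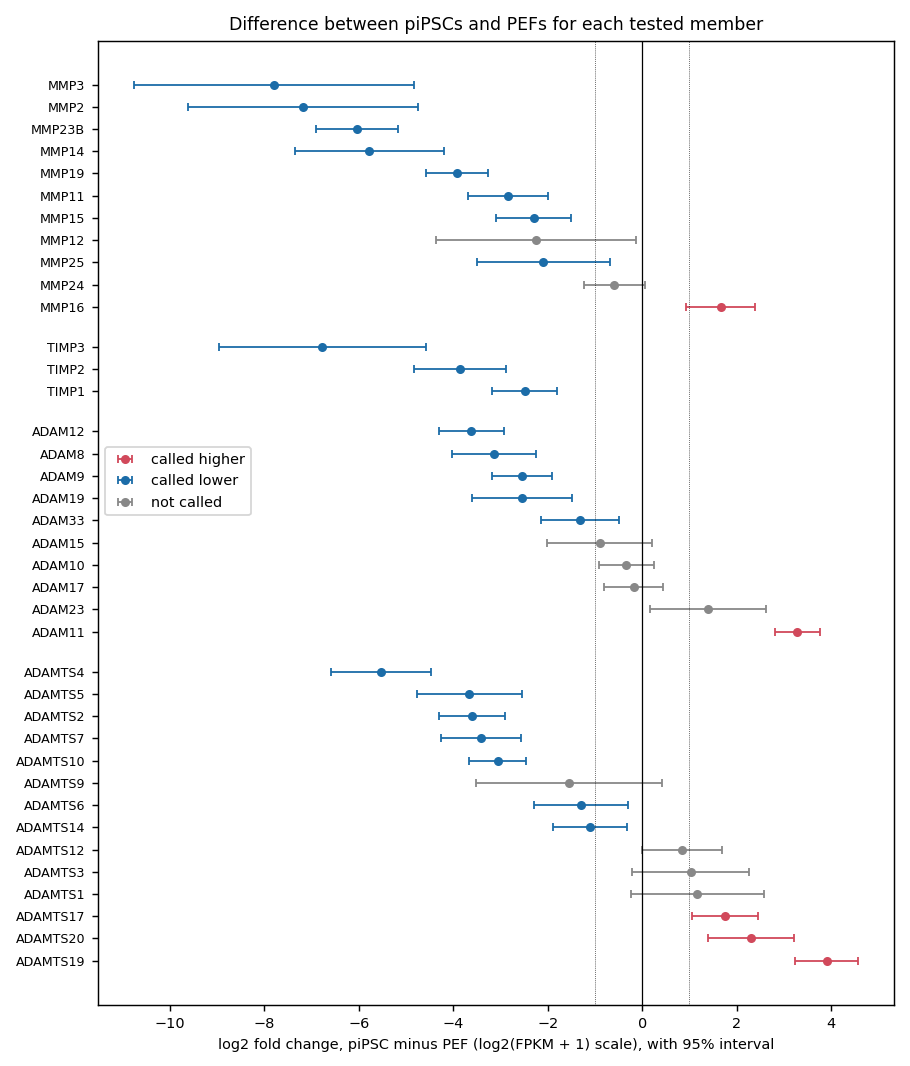
Log2 fold change of each of the 38 tested members, piPSC minus PEF on the log2(FPKM + 1) scale, with the 95% interval of limma, ordered within MMP, TIMP, ADAM and ADAMTS genes from top to bottom. Blue points are the 23 called lower, red the 5 called higher and grey the 10 not called, and dotted lines mark 2-fold; the MMP3 row is lowest at -7.80 and ADAMTS19 highest at 3.90.

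MMP2, or gelatinase A, which cuts gelatin and type IV collagen, was the most abundant MMP in PEF5 and PEF7. It lies on chromosome 6 from 30058595 to 30087031. In PEF5, PEF7 and PEF8 its level was 1425, 2284 and 1245 FPKM, and the piPSC lines of the same order had 38.1, 15.7 and 1.02 FPKM. It fell by 7.18 on the log2 scale (SE 1.02, limma adjusted p = 0.00197). The lowest PEF library thus stood far above the highest piPSC library, and the piPSC lines themselves were widely spread. MMP9, the other gelatinase, did not pass the filter and had 3, 96 and 65 fragments in PEF5, PEF7 and PEF8 and 5, 0 and 0 in piPSC5, piPSC7 and piPSC8.

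MMP14, the membrane-type MMP known to activate the MMP2 precursor at the cell surface together with TIMP2, lies on chromosome 7 from 76174503 to 76186094. It had 307, 691 and 620 FPKM in PEF5, PEF7 and PEF8, and 24.8, 3.87 and 5.38 FPKM in the piPSC lines of the same order. It fell by 5.78 (SE 0.656, limma adjusted p = 0.000933). So the enzyme, its activator MMP14 and the inhibitor TIMP2 that bridges them were all lower in every piPSC library.

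The other membrane-type MMPs were less abundant and did not move one way. MMP15 had 4.89, 7.74 and 3.01 FPKM in PEFs and 0.226, 0.407 and 0.0163 in piPSCs and fell by 2.29 (limma adjusted p = 0.00216). MMP25, known from leukocytes, had 9.36, 0.911 and 4.70 FPKM in PEFs and 0.229, 0.0725 and 0.104 in piPSCs. It fell by 2.09 (limma adjusted p = 0.0241), a call that was lost when PEF5, PEF8 or any 1 piPSC line was left out (adjusted p up to 0.0693). In contrast, MMP16 rose by 1.66 (SE 0.306, limma adjusted p = 0.00516), from 1.87, 0.986 and 0.773 FPKM in PEFs to 8.56, 5.01 and 4.54 in piPSCs. None of the other 10 tested MMP genes was called higher, and in piPSC8 it made up 31.4% of the MMP sum. MMP24 had a mean of 1.45 ± 0.435 FPKM over the PEF lines and 0.631 ± 0.330 over the piPSC lines (SD, n = 3) and was not called (log2 fold change -0.59, limma adjusted p = 0.108). MMP17 did not pass the filter, with 20, 28 and 92 fragments in the PEF and 5, 6 and 2 in the piPSC lines.

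The MMP3 row had 300.4 FPKM in PEF5, 115 in PEF7 and 2336 in PEF8, a spread over the PEF lines wider than that of MMP2. In piPSC5 it had 6.22 FPKM, from 553 fragments. In piPSC7 and piPSC8 it had 2 and 0 fragments. It fell by 7.80 (SE 1.24, limma adjusted p = 0.00298). MMP11, stromelysin-3, was far more even, at 42.7, 38.5 and 39.4 FPKM in PEFs and 5.96, 7.37 and 2.23 in piPSCs, and fell by 2.85 (limma adjusted p = 0.00125).

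MMP12, macrophage elastase, lies next to the MMP3 row and had 564, 2 and 278 fragments in PEF5, PEF7 and PEF8 and 0 in all piPSC lines. PEF5 and PEF8 were high and PEF7 was close to the piPSC lines. It was at least 69.2-fold lower in piPSCs when 3 fragments per library are allowed for a count of 0, which covers the counting error only. This bound was 38.3 without PEF5 and 104 without PEF7, and line 7 with its 2 fragments gives no fold. It was not called (limma adjusted p = 0.0713), but without PEF7 the adjusted p was 0.00216. Of the 5 macrophage markers with a row, CD14 had 9.20, 21.9 and 13.1 FPKM in PEFs and at most 0.239 in piPSCs, CD68 had 1.11, 0.786 and 2.29 FPKM in PEFs and 1.98, 0.804 and 2.71 in piPSCs, CSF1R had at most 0.313 FPKM in any library, and CD163 and AIF1 were at or near 0. The 5, mostly through CD14 in PEFs, summed to between 10.4 and 22.9 FPKM in PEFs and between 1.10 and 3.26 in piPSCs. The part of such cells in the values of MMP12 was not tested.

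MMP23B and MMP19 fell in every line. MMP23B, an MMP anchored by its N-terminal end, had 71.6, 113 and 160 FPKM in PEFs and 1.40, 0.222 and 0.598 in piPSCs, and fell by 6.04 (SE 0.366, limma adjusted p = 0.000179). MMP19, which cuts basement membrane proteins, had 17.0, 22.2 and 28.1 FPKM in PEFs and 0.872, 0.620 and 0.167 in piPSCs and fell by 3.92 (limma adjusted p = 0.00025). The remaining MMPs, collagenases MMP8 and MMP13, matrilysin MMP7, MMP27 and MMP28, had at most 0.235 FPKM in any library.

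Among the inhibitors, TIMP1 remained the most abundant TIMP in both groups. It is a secreted inhibitor encoded on the X chromosome from 42102211 to 42106415. Its level was 520, 638 and 636 FPKM in PEFs and 88.0, 164 and 80.9 in piPSCs, and it fell by 2.49 (SE 0.287, limma adjusted p = 0.000986). The log2 ratio of (FPKM + 1), piPSC over PEF, was -2.55 in line 5, -1.96 in line 7 and -2.96 in line 8, the line with DDX3Y fragments. With 1 such line, a difference tied to the Y chromosome was not tested.

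TIMP2, which both blocks MMP2 and takes part in its activation, had 189, 231 and 277 FPKM in PEFs and 17.8, 24.1 and 7.32 in piPSCs. It fell by 3.87 (SE 0.408, limma adjusted p = 0.000771). TIMP3, which is held in the matrix and also blocks ADAM17 and several ADAMTS enzymes, had 225, 267 and 449 FPKM in PEFs and 11.9, 0.545 and 0.0393 in piPSCs. It fell by 6.77 (SE 0.916, limma adjusted p = 0.00168), and piPSC5 held more of it than the other piPSC lines. TIMP4 was low throughout, with 25, 23 and 44 fragments in the PEF and 3, 12 and 5 in the piPSC lines, and did not pass the filter.

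TIMP1, TIMP3 and TIMP4 lie inside introns of synapsin genes, and the library kit does not mark the strand. SYN1 had between 0.616 and 0.931 FPKM in PEFs and between 0.0188 and 0.0698 in piPSCs, far under TIMP1. SYN2 reached 5.40 FPKM in piPSC7, above TIMP4 in the same library, and SYN3 was not analysed here. In all, 15 of the 57 member rows overlap 2 or more RefSeq genes.

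**Figure D3:**
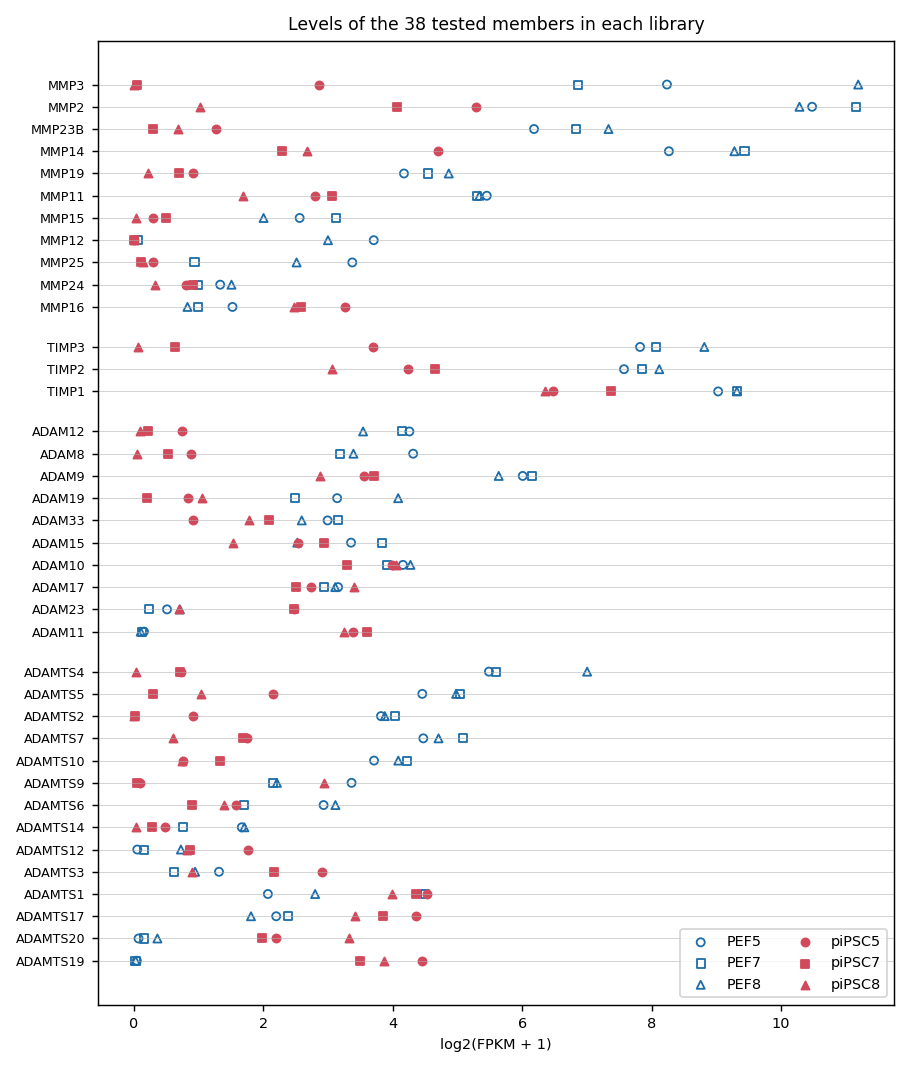
Level of each of the 38 tested members in each library as log2(FPKM + 1). Open blue symbols are PEF and filled red symbols piPSC libraries, with circles for line 5, squares for line 7 and triangles for line 8. MMP2, MMP14, the MMP3 row and the TIMPs are the highest in PEFs, and TIMP1 stays at between 80.9 and 164 FPKM in piPSCs.

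The summed level of the MMP genes was 2194, 3275 and 4449 FPKM in PEF5, PEF7 and PEF8, and 87.4, 34.5 and 14.5 in piPSC5, piPSC7 and piPSC8. That of the TIMP genes was 935, 1136 and 1362 in PEFs and 118, 189 and 88.3 in piPSCs. The ratio of MMP to TIMP RNA was therefore 2.35, 2.88 and 3.27 in PEFs and 0.741, 0.183 and 0.164 in piPSCs. More MMP than TIMP RNA was present in every PEF library and less in every piPSC library. Without the MMP3 row the ratios were 2.03, 2.78 and 1.55 in PEFs and 0.689, 0.183 and 0.164 in piPSCs. For these sums no p is given, since a two-sided exact permutation test of 3 lines against 3 has 0.1 as its smallest p.

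The make-up of the MMP sum differed between the PEF lines. MMP2 made up 65.0% of it in PEF5 and 69.7% in PEF7, and the MMP3 row made up 52.5% in PEF8, where MMP2 made up 28.0%. In piPSCs MMP2 led in piPSC5 (43.6%) and piPSC7 (45.6%), and MMP14 in piPSC8 (37.2%). TIMP1 made up between 46.7% and 56.2% of the TIMP sum in PEFs and between 74.7% and 91.6% in piPSCs.

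**Figure D4:**
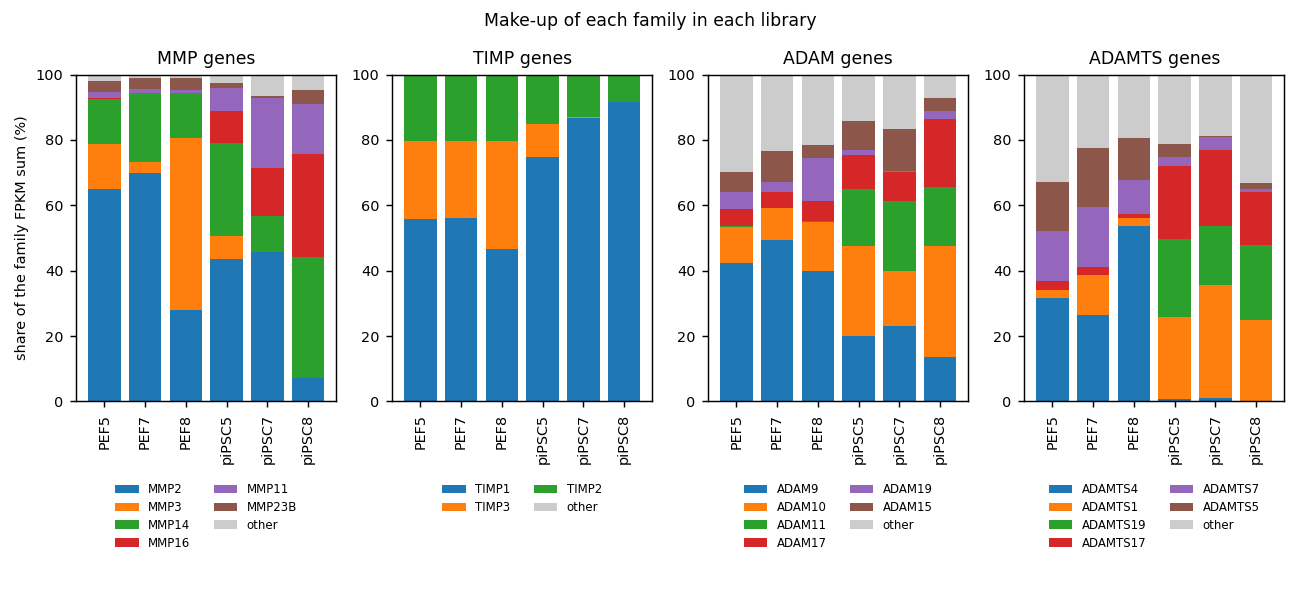
Share in percent of each family's FPKM sum that is held by its leading members in each library, with the other members in grey; each bar adds to 100% and so shows the make-up and not the level. ADAMTS4 leads the ADAMTS genes of PEFs and ADAMTS1, ADAMTS19 and ADAMTS17 those of piPSCs, and TIMP1 takes a larger share of the TIMP sum in all piPSC lines.

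The ADAMs with a catalytic site split into those that fell and those that were not called. ADAM9, a widely expressed sheddase, led the ADAM sum of every PEF line, with 63.3, 69.8 and 48.7 FPKM, against 10.7, 12.1 and 6.33 in piPSCs, and fell by 2.55 (SE 0.264, limma adjusted p = 0.000722). ADAM12, known from mesenchymal cells and muscle precursors, had 18.1, 16.7 and 10.6 FPKM in PEFs and 0.680, 0.166 and 0.0672 in piPSCs and fell by 3.62 (limma adjusted p = 0.000343). ADAM8, known from leukocytes, had 18.9, 8.08 and 9.49 FPKM in PEFs and 0.847, 0.445 and 0.0282 in piPSCs and fell by 3.14 (limma adjusted p = 0.00108). These 3 genes were at least 4-fold lower in the highest piPSC than in the lowest PEF library.

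ADAM19, which can shed neuregulins, had 7.81, 4.63 and 15.9 FPKM in PEFs and 0.776, 0.144 and 1.07 in piPSCs and fell by 2.55 (limma adjusted p = 0.00425). ADAM33 fell by 1.32 (limma adjusted p = 0.0189), from 6.95, 7.93 and 5.03 FPKM to 0.877, 3.26 and 2.42, and this call was lost without PEF5, PEF7 or piPSC5 (adjusted p up to 0.066).

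ADAM10 and ADAM17, the main sheddases of Notch receptors and of tumour necrosis factor and EGF receptor ligands, overlapped between the groups. ADAM10 had 16.8, 14.1 and 18.3 FPKM in PEFs and 14.9, 8.82 and 15.6 in piPSCs. Its log2 fold change was -0.33 with a 95% interval from -0.92 to 0.25 (limma adjusted p = 0.285). ADAM17 had 7.90, 6.65 and 7.63 FPKM in PEFs and 5.69, 4.70 and 9.60 in piPSCs. The interval of its log2 fold change of -0.18 ran from -0.81 to 0.45 (limma adjusted p = 0.587). Both intervals lie within 2-fold either way in the main fit, on the scale as deposited. Under the alternatives the log2 fold change ran from -0.64 to -0.092 for ADAM10 and from -0.46 to 0.0068 for ADAM17. The intervals of those fits are not given here, so a 2-fold decrease is not excluded under them. ADAM15 had 9.22, 13.3 and 4.75 FPKM in PEFs and 4.78, 6.69 and 1.89 in piPSCs, and its log2 fold change was -0.90 (limma adjusted p = 0.147, and 0.0162 with the line as a block, in each case under 2-fold).

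Of the 7 ADAMs without a catalytic site, which act as receptors or adhesion molecules, 2 passed the filter and 1 of these rose. ADAM11, known from neurons, lies on chromosome 12 from 18573286 to 18597460. It had 0.112, 0.0898 and 0.0743 FPKM in PEFs and 9.41, 11.2 and 8.44 in piPSCs, and rose by 3.28 (SE 0.199, limma adjusted p = 0.000179). Its lowest piPSC library was 75.2-fold above its highest PEF library. ADAM23, a relative that is also known from the nervous system, had 0.424, 0.170 and 0.635 FPKM in PEFs and 4.52, 4.57 and 0.615 in piPSCs, so that piPSC8 stayed at the level of PEF8. It was not called (log2 fold change 1.40, limma adjusted p = 0.0577), but it was called without piPSC8 (adjusted p = 0.00287). ADAM22, the third of this group, did not pass the filter, with 2, 1 and 6 fragments in the PEF and 52, 11 and 12 in the piPSC lines. The reproductive ADAMs ADAM2, ADAM3A, ADAM7 and ADAM32, and ADAM28, had at most 0.338 FPKM in any library.

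ADAMTS4 and ADAMTS5, the aggrecanases, led the ADAMTS genes of PEFs with ADAMTS7. ADAMTS4 had 43.8, 47.3 and 127 FPKM in PEFs and 0.659, 0.632 and 0.0244 in piPSCs and fell by 5.54 (SE 0.444, limma adjusted p = 0.000353). ADAMTS5 had 20.9, 31.9 and 30.5 FPKM in PEFs and 3.43, 0.231 and 1.05 in piPSCs and fell by 3.66 (SE 0.467, limma adjusted p = 0.00136). ADAMTS1, which cuts versican and lies 72.2 kb from ADAMTS5 on chromosome 13, did not share this pattern. It had 3.20, 21.7 and 5.96 FPKM in PEFs and 22.1, 19.6 and 14.8 in piPSCs, and PEF7 lay among the piPSC lines. Its log2 fold change was 1.17 (limma adjusted p = 0.138, and 0.00794 without PEF7), and it led the ADAMTS sum of every piPSC line.

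ADAMTS9, which also cuts versican, differed between the lines. It had 9.28, 3.44 and 3.62 FPKM in PEFs and 0.0691, 0.0328 and 6.64 in piPSCs. The level in piPSC8 came from 563 fragments, against 8 in piPSC5 and 3 in piPSC7. It was not called (log2 fold change -1.55, limma adjusted p = 0.155), but it was called without piPSC8 (adjusted p = 0.00655). ADAMTS20, its closest relative, rose by 2.31 (SE 0.382, limma adjusted p = 0.00344), from 0.0498, 0.114 and 0.285 FPKM in PEFs to 3.59, 2.94 and 9.03 in piPSCs, and piPSC8 was highest for it as well. ADAMTS8 and ADAMTS15 did not pass the filter. ADAMTS8 had 85 fragments in piPSC5 (2.08 FPKM) and between 1 and 15 in every other library.

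Of the procollagen N-proteinases, which trim collagen precursors, ADAMTS2 had 13.1, 15.3 and 13.7 FPKM in PEFs and 0.875, 0.0123 and 0 in piPSCs and fell by 3.60 (SE 0.294, limma adjusted p = 0.000375). ADAMTS14 fell by 1.11 (limma adjusted p = 0.0286), from 2.17, 0.694 and 2.26 FPKM to 0.395, 0.214 and 0.0257, but with the line as a block the adjusted p was 0.0508, and the call was also lost without PEF5, PEF8 or any 1 piPSC line. ADAMTS3 had 1.49, 0.538 and 0.924 FPKM in PEFs and 6.47, 3.46 and 0.863 in piPSCs and was not called (log2 fold change 1.03, limma adjusted p = 0.136, and 0.014 without piPSC8).

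The cartilage oligomeric matrix protein is cut by ADAMTS7 and ADAMTS12. ADAMTS7 fell by 3.41 (SE 0.354, limma adjusted p = 0.000728), from 21.2, 32.8 and 25.1 FPKM in PEFs to 2.35, 2.22 and 0.515 in piPSCs. ADAMTS12 had 0.0358, 0.115 and 0.653 FPKM in PEFs and 2.40, 0.823 and 0.773 in piPSCs and was not called (log2 fold change 0.84, limma adjusted p = 0.0854). ADAMTS10 and ADAMTS6 were grouped here as tied to fibrillin microfibrils. This grouping left out ADAMTS17, which rose, so it does not stand for all fibrillin-linked genes. ADAMTS10 had 12.1, 17.6 and 16.0 FPKM in PEFs and 0.686, 1.51 and 0.676 in piPSCs and fell by 3.06 (limma adjusted p = 0.000382). ADAMTS6 fell by 1.29 (limma adjusted p = 0.0381), from 6.62, 2.26 and 7.65 FPKM to 1.98, 0.871 and 1.62, with the highest piPSC and the lowest PEF library close together, and the call was lost without PEF5, PEF8 or any 1 piPSC line (adjusted p up to 0.117).

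ADAMTS19 and ADAMTS17, a related pair, both rose. ADAMTS19 lies on chromosome 2 from 132144862 to 132409660 and had 2, 1 and 1 fragments in PEF5, PEF7 and PEF8 and 1137, 439 and 539 in piPSC5, piPSC7 and piPSC8. Pooled over the lines, the ratio of fragments, each taken relative to its library's total, was 692, with a 95% counting interval from 270 to 2543. In FPKM it went from at most 0.031 to 20.9, 10.2 and 13.6 (fitted log2 fold change 3.90, SE 0.28, limma adjusted p = 0.000271). ADAMTS17 was present in PEFs, with 3.59, 4.19 and 2.50 FPKM, and had 19.6, 13.4 and 9.70 in piPSCs. It rose by 1.75 (SE 0.291, limma adjusted p = 0.00353). ADAMTS13, the protease of von Willebrand factor, ADAMTS16 and ADAMTS18 had at most 0.247 FPKM in any library.

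Each piPSC line was also set against its own PEF line, by the ratio of (FPKM + 1). The median log2 ratio of the 38 tested members was -2.38 in line 5, -2.03 in line 7 and -2.57 in line 8, against 0.21, 0.24 and 0.08 over all tested genes. At least a 2-fold decrease in all 3 lines was seen for 19 members and at least a 2-fold increase in all 3 for 5. Over all 18007 genes these shares were 8.21% and 8.82%, and over the 12428 tested genes 11.9% and 12.8%. The 5 that rose were MMP16, ADAM11, ADAMTS17, ADAMTS19 and ADAMTS20.

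The piPSC lines were not equal in what was left of the genes that fell. Among the 23 members called lower, the highest piPSC level was in piPSC5 for 15 (65.2%, against 37.1% of the 2070 genes called lower overall) and the lowest was in piPSC8 for 16 (69.6%, against 55.3%). Of the 9 fibroblast markers, 8 were highest in piPSC5 and 6 lowest in piPSC8 among the piPSC lines. COL1A1, a type I collagen chain, had 58.4, 4.01 and 2.27 FPKM in this order of lines, while COL3A1 ran the other way with 94.2, 109 and 125, and the 9 summed to 219, 128 and 138. The part of fibroblasts left in the cultures, and that of the mouse feeder cells, in these levels was not tested.

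**Figure D5:**
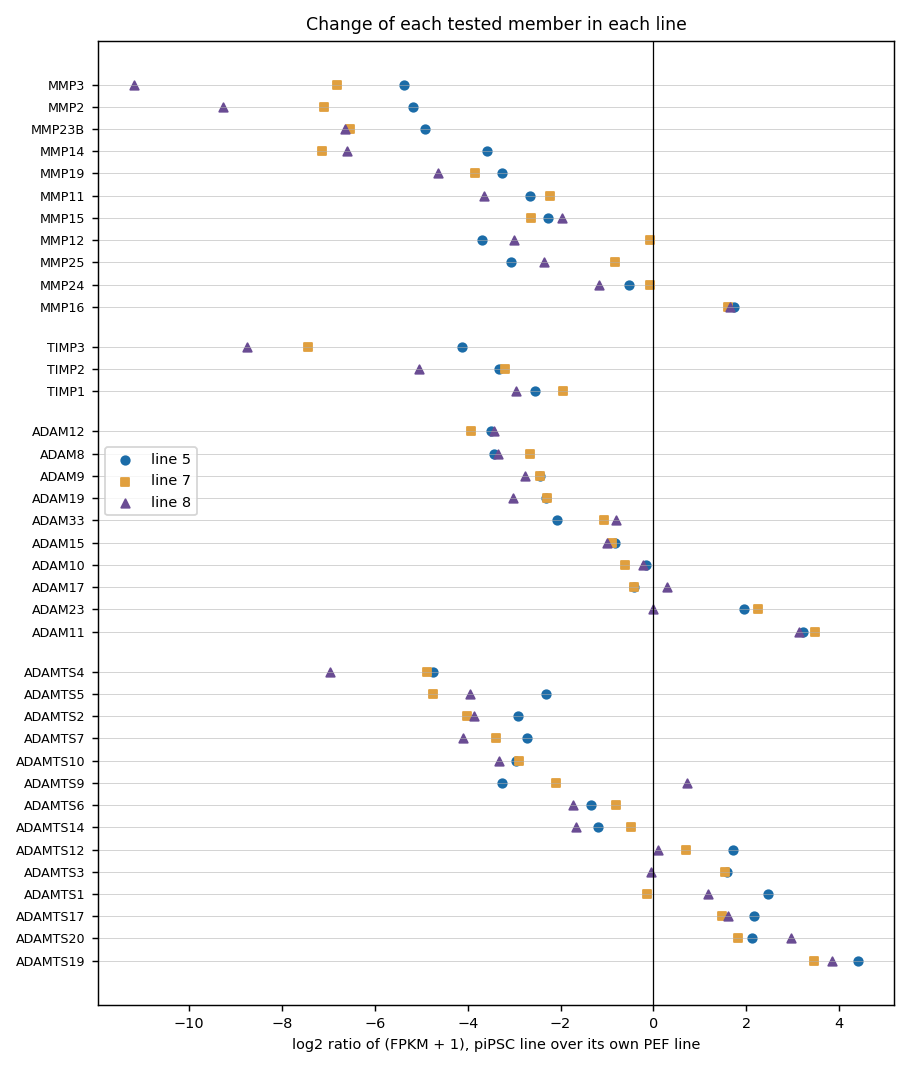
Log2 ratio of (FPKM + 1) of each piPSC line over the PEF line it was made from, for the 38 tested members, with circles for line 5, squares for line 7 and triangles for line 8. MMP16, ADAM11 and ADAMTS17, ADAMTS19 and ADAMTS20 lie right of 0 in all lines, and ADAMTS9 lies left of 0 in lines 5 and 7 and at 0.73 in line 8.

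Genes that act on the same pathways were taken from lists. Their counts stand beside 16.7% called lower and 20.2% called higher over all tested genes, with a median log2 fold change of 0.20. Of 11 tested activators and inhibitors outside the families, 7 fell and none rose (median log2 fold change -2.32), and between 6 and 8 fell under the alternatives. PLAUR, the receptor of urokinase, fell by 6.11 from 88.5, 106 and 138 FPKM to 1.84, 0.219 and 0.158. Its ligand PLAU fell by 3.29. FURIN, which removes the propeptide of membrane-type MMPs and ADAMs, fell by 2.32, and LRP1, a receptor that clears MMPs and TIMPs from the cell surface, fell by 4.24. RECK, a membrane-anchored inhibitor of MMPs, passed the test (limma adjusted p = 0.0188) but at -0.86 stayed under the 2-fold threshold.

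Of 12 tested partners of ADAMs, 3 fell, 1 rose and 8 were not called (median -0.55), beside 16.7% lower and 20.2% higher over all tested genes. Whether so few genes differ from these shares was not tested. TSPAN14 fell by 1.88, TSPAN5 fell by 1.08 and TSPAN33 rose by 1.81; these tetraspanins bind ADAM10. The call of TSPAN5 was lost with the line as a block (limma adjusted p = 0.0524), without the filter, by voom and without PEF5, PEF7 or any 1 piPSC line. RHBDF1, an inactive rhomboid protein needed for ADAM17 maturation, fell by 1.52, and its relative RHBDF2 was not called at 0.49. Of 13 tested genes whose proteins are shed, 8 fell, 1 rose and 4 were not called (median -1.31). The EGF receptor ligand EREG fell by 7.44, its relative AREG fell by 7.07 and the chemokine CXCL16 fell by 5.47. CDH2, or N-cadherin, a substrate of ADAM10, rose by 4.19, from 7.58, 1.89 and 1.37 FPKM to 75.5, 68.5 and 65.8.

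Of 12 tested substrates in the matrix 10 fell and none rose (median -3.52), among them COL1A1 (-7.32), COL1A2 (-7.09), DCN (-5.25) and SPARC (-3.45). COL1A1, COL1A2, COL3A1 and DCN are also among the fibroblast markers above. With the line as a block 9 fell, since FN1 was lost (limma adjusted p = 0.0614), and between 6 and 11 fell under the alternatives; FN1, ELN, VCAN and LAMA5 lost their call under at least 1. COL4A2, a basement membrane collagen, had 39.3, 42.7 and 108 FPKM in PEFs and 2.38, 0.297 and 90.7 in piPSCs and was not called. Of 8 tested ADAMTS-like genes and other metzincins, the wider group of zinc proteases, 7 fell and none rose (median -2.52), and 5 fell with the line as a block, where ADAMTSL5 (limma adjusted p = 0.0902) and PCOLCE2 (0.0663) were lost. BMP1, the procollagen C-proteinase, fell by 2.95, and its enhancer PCOLCE fell by 3.07.

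Of the 10 AP-1 subunits listed, 7 had a row, and these did not move together. JUN, JUNB and JUND had no row under these names, so nothing is said of them here. FOSL1 fell by 2.09, FOSL2 fell by 2.59, BATF3 rose by 3.45, and FOS, FOSB and ATF3 were not called. BATF also rose, with 0 fragments in all PEFs and 272, 701 and 9 in piPSC5, piPSC7 and piPSC8, a call (limma adjusted p = 0.035) that was lost without the filter and without any 1 PEF line, piPSC5 or piPSC7 (up to 0.101). Of the 7 members with an AP-1 match in the promoter window, the MMP3 row and MMP19 fell, ADAMTS1 and MMP12 were not called and the other 3 did not pass the filter.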

How the data were processed

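The authors deposited FPKM values for 18007 genes in 6 libraries, 3 PEF and 3 piPSC. The submitters' processing notes name HISAT2 2.1.0, Bowtie2 2.2.3, HTSeq 0.6.0 and Sscrofa11.1; their settings and the treatment of fragments shared between genes are not given in the sources used here. FPKM were whole multiples of 1 fragment, which gave fragments for all 18007 genes (100%, within 0.002 fragments), as the smallest whole numbers that fit. They can be fractions of the true counts for genes with few fragments.

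FPKM are relative to each library's total. They summed to between 337074 and 348943 in PEFs and between 420498 and 437853 in piPSCs, so the scale could shift all fold changes, and 2 other scalings were tried. Tests used limma 3.58.1 in R 4.3.3 (eBayes with a trend) on log2(FPKM + 1), two-sided and with Benjamini-Hochberg adjustment over the 12428 genes whose mean reached 0.5 FPKM. This scale understates changes of low genes. The fit was also run on simulated data, with the same relative spread for every gene and few changed genes. That setting differs from these data, so it does not show how the fit behaves here. Changes given as "fell by" or "rose by" are on this log2 scale. The study's methods name an unpaired test for its statistics in general, while its RNA-seq comparison set each piPSC line against its own PEF line. In the main fit here the lines were not paired, and a line block was an alternative. They are paired by origin: deviations from group means correlated at 0.0921, 0.0946 and 0.08 for libraries of the same line and at between -0.121 and 0.0553 for others.

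The members and lists were chosen with earlier results of these data known. Named with values in every library were the TIMPs, the called members and uncalled members with a mean of at least 5 FPKM in either group; other members and genes from the lists were named after their values were seen. Alternatives were a line block, a pseudocount of 0.1, no filter, a mean FPKM of at least 1, median ratio, equal sum and quantile scaling, no trend, voom on recovered fragments and leaving out each library. Promoters were read from the Sscrofa11.1 genome at RefSeq starts. The starts of the deposited table and leaving out each line in the ratios were added after the data were seen. Python 3.11.15 was used for the rest. One gene of the list of activators and inhibitors is not reported here by name.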

Additional observations from a re-analysis of the deposited data

Results flagged for a closer look

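ADAMTS9 moved in opposite directions in the lines. The log2 ratio of (FPKM + 1), piPSC line over its own PEF line, was -3.27 in line 5, -2.10 in line 7 and 0.73 in line 8. With 1 library per line and group, the difference between the lines was not tested.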

How the results depend on the processing

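Of the 28 called members, 24 had the same call under every alternative in which they were tested, and MMP25, ADAM33, ADAMTS6 and ADAMTS14 lost it under at least 1. Of the 10 uncalled members, 6 were called under at least 1 alternative, namely MMP12, ADAM23, ADAMTS1, ADAMTS3, ADAMTS9 and ADAMTS12, and 4 under none. The number of members called lower was between 19 and 23 and higher between 5 and 7 when 1 library was left out. It was 22 and 5 when a replicate block for the line was added, where ADAMTS14 was lost, 22 and 6 with quantile normalization (ADAMTS14 lost, ADAM23 gained) and 22 and 6 with voom on fragments (ADAMTS6 lost, ADAMTS12 gained). The block changed the call of no other member. The median log2 fold change of tested members was -3.16 with a pseudocount of 0.1 and -3.60 with voom, and between -2.44 and -1.92 when 1 library was left out, the latter without PEF5. A smaller pseudocount shrinks low values less by construction. The log2 fold change of ADAM17 ran from -0.44 (without piPSC8) to 0.00677 (without piPSC7) when 1 library was left out, with its direction reversed in the latter, and was -0.46 with equal sums. With a 4-fold instead of a 2-fold threshold, 17 members were lower and 2 higher in each line, against 19 and 5. Shares of all genes at 4-fold, and in the block, quantile, voom and left-out fits, are not given here. These counts therefore do not show whether the members moved apart from all genes. Median ratio and equal sum scaling moved the split of all genes but not that of the members. Calls over all genes were 2505 higher and 2070 lower as deposited, 1876 and 2520 after median ratio scaling, and 1770 and 2619 with equal sums. The 19 members under the filter, with at most 96 fragments in any library, were not tested. Calls of the lists under the same alternatives were counted after the data were seen.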
